A study of Mus musculus with 34 samples.

Results

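The response to fluoxetine was compared between 2 excitatory cell types of the mouse dentate gyrus: for each gene, the fluoxetine effect in granule cells minus the fluoxetine effect in mossy cells. This difference was computed from 21 of the 34 samples of the series, chosen by their labels: granule cells with vehicle (n = 4), granule cells with fluoxetine (n = 4), mossy cells with vehicle (n = 6) and mossy cells with fluoxetine (n = 7). All are labelled as wild-type mouse hippocampus, and RNA was isolated by TRAP, short for translating ribosome affinity purification, in which a tag on the ribosomes of the chosen cells is used to collect the mRNAs being translated there. The labels give no dose, duration, age or sex, do not name the driver of the ribosome tag, and do not say whether replicates are separate animals, so the p-values reflect only the variation among the libraries at hand, which may be technical.

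Granule cells are the principal neurons of the dentate gyrus and send their axons, the mossy fibres, to CA3. Mossy cells are glutamatergic neurons of the hilus that receive granule-cell input and project back onto granule cells and local interneurons. Fluoxetine is a selective serotonin reuptake inhibitor; both cell types express serotonin receptors, and the dentate gyrus is a much studied site of the action of such drugs. An interaction above 0 on the log2 scale means that expression under fluoxetine, relative to vehicle, was higher in granule cells than in mossy cells; it can arise from an increase in granule cells, a decrease in mossy cells, or both.

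Sequencing depth was 14.1 to 40 M counts per granule-cell library and 23.6 to 43.5 M counts per mossy-cell library. The ribosomal RNA precursor Rn45s took 0.694 to 7.71% of the counts in granule-cell libraries and 15.3 to 22.5% in mossy-cell libraries. Marker levels followed the labels for granule cells: the summed level of 12 granule-cell markers was 1140 to 1540 CPM (counts scaled to the size of the library) in granule-cell libraries and 290 to 375 CPM in mossy-cell libraries. The summed level of 12 mossy-cell markers overlapped, at 644 to 1190 against 894 to 1490 CPM. With vehicle, mean levels of Sv2b (362 against 262 CPM), Gria3 (270.9 against 125.9), Ajap1 (44.65 against 39.25) and Calcrl (6.10 against 1.02) were higher in granule cells. Those of the other members were higher in mossy cells. Calb2, which encodes calretinin and is also on the list of immature granule-cell markers, stood at 11.3 to 21.3 CPM in granule-cell and 186 to 475 CPM in mossy-cell libraries. Mossy-cell libraries also held 3080 to 5970 CPM of 12 interneuron markers, against 497 to 1030 CPM. On the first principal component of the granule-cell libraries (27.8% of the variance), vehicle 1 and 4 lay at -126 and -19.8 and vehicle 2 and 3 at 34.6 and 38.8, while fluoxetine 1 and 4 lay at 9.02 and -37.2 and fluoxetine 2 and 3 at 56.6 and 44.2. In the chi-square between libraries, divided by its degrees of freedom, vehicle 1 and 4 (56.6) and vehicle 2 and 3 (53.9) were the closest pairs, but the closest fluoxetine pair was 1 and 3 (138). Granule vehicle 1 and 4 had 1570 and 1630 CPM of 12 CA1 and CA2 pyramidal-cell markers, against 706 and 713 CPM in vehicle 2 and 3 and 579 to 836 CPM in the 4 fluoxetine libraries. Pcp4, a calmodulin-binding protein gene, contributed a mean of 839 CPM with vehicle, out of a mean sum of 1156 CPM, and 331 CPM with fluoxetine, out of 680.2 CPM. The spread between libraries was larger in granule cells (biological coefficient of variation 0.560) than in mossy cells (0.290).

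Fluoxetine changed expression differently in granule and mossy cells for 28 of 15444 genes tested, which is 0.181% of them (edgeR, adjusted p under 0.05). For 8 genes (0.0518%) the effect was higher in granule cells, among them the septin gene Sept6, the vesicle-priming gene Cadps and the kinesin gene Kif3a. For 20 genes (0.13%) it was lower in granule cells, among them the neuropeptide genes Cck and Cartpt, the adenylyl cyclase gene Adcy1 and the postsynaptic scaffold gene Shank2. All 28 adjusted p-values lay close to the threshold, from 0.0201 to 0.0488, and 2151 genes had an unadjusted p under 0.05. No gene passed with an offset for transcript GC content and length (2127 at an unadjusted p under 0.05). None passed without granule fluoxetine 3, mossy vehicle 3, 5 or 6 or mossy fluoxetine 5 (1902 to 2006 at an unadjusted p under 0.05), whereas 354 passed without granule fluoxetine 2. Each of the 28 kept its sign in all those fits, which reuse the libraries that chose the genes.

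In the same fit, fluoxetine raised 196 genes (1.27%) and lowered 139 (0.9%) in granule cells. It raised 287 (1.86%) and lowered 5 (0.0324%) in mossy cells. For each gene, that fit used a spread estimated from both cell types together. The granule-cell SEs and p-values thus do not rest on granule-cell spread alone, which was larger (biological coefficient of variation 0.560 against 0.290). Another method, limma-voom, run in each cell type on its own, called 0 genes in granule cells and 1088 in mossy cells. Method and spread both differed there, so the part of the shared spread was not tested. The fluoxetine effects were partly shared. Of the 287 genes raised in mossy cells, 219 (76.3%) had a positive effect in granule cells, against 51.9% of all genes tested, and their median log2 effect there was 0.25; 37 of them were also raised in granule cells and 1 was lowered. Of the 139 genes lowered in granule cells, 49 (35.3%) had a positive effect in mossy cells, against 50.3% of all genes tested. Across the 9564 genes whose average log2 CPM reached 3, the effects in the 2 cell types had a Pearson r of 0.18 and a Spearman rho of 0.15. Across all 15444 genes tested these were 0.04 and 0.10, so the shared part was small. Such values are across genes that are not independent replicates.

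All 8 genes with a higher effect in granule cells had a positive effect in granule cells and a negative effect in mossy cells, and each of the 8 was called in granule cells and none in mossy cells. Of the 20 with a lower effect, 18 were negative in granule cells and positive in mossy cells and 2 were negative in both. Among the 20, the granule-cell effect was itself called for 11 and the mossy-cell effect for 7, and neither was called for 3. Trp53i11 was called in both, in opposite directions. The interaction chose these genes, so the split by direction is a description.

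**Figure D1:**
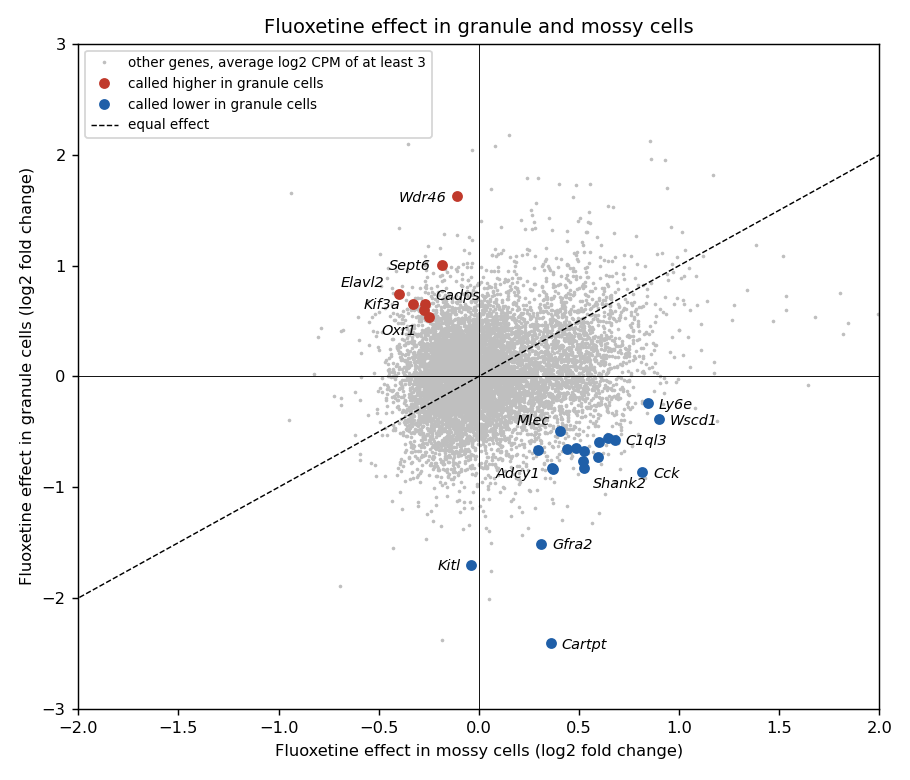
Fluoxetine effect (log2 fold change) in mossy cells (x axis) and granule cells (y axis) for genes whose average log2 CPM reached 3 (grey), with called genes in red (higher in granule cells) and blue (lower); the dashed line marks equal effects. Called genes lie far from the line, red at the upper left and blue at the lower right; Ttc12 and Ccdc63, which are near 0 in granule-cell libraries, and genes beyond the axes are not drawn.

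Sept6 encodes a septin, a GTP-binding protein that assembles into filaments at membranes, and lies on chromosome X (GRCm38, 36911326 to 36991794, minus strand). Its level in granule cells was 38.8, 45.6, 47.1 and 49.0 CPM with vehicle and 109, 79.9, 93.0 and 80.3 CPM with fluoxetine. In mossy cells it ran from 86.1 through a median of 120 to 137 CPM with vehicle and from 85.9 through 107 to 118 CPM with fluoxetine. Each fluoxetine library of granule cells lay above each vehicle library, while the mossy-cell groups overlapped. The log2 effect was 1.01 ± 0.15 (SE) in granule cells and -0.19 ± 0.12 in mossy cells, an interaction of 1.19 ± 0.19 (adjusted p = 0.0201). Sept6 had the smallest adjusted p, and it passed in 16 of the 21 fits that left out 1 library.

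The neuronal RNA-binding protein gene Elavl2 lies on chromosome 4 (91250763 to 91400785). Its levels in granule cells were 52.0, 65.6, 60.0 and 57.1 CPM with vehicle and 106, 61.3, 111 and 113 CPM with fluoxetine. Fluoxetine 2 lay within the vehicle range and the other fluoxetine libraries above it. In mossy cells the median was 201 CPM with vehicle (159 to 218) and 152 CPM with fluoxetine (119 to 170), and the groups overlapped. The interaction was 1.14 ± 0.21 (adjusted p = 0.0317).

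Cadps encodes a protein that primes dense-core vesicles for release and lies on chromosome 14 (12372563 to 12823079). In granule cells it stood at 170, 199, 250 and 187 CPM with vehicle and at 346, 212, 351 and 362 CPM with fluoxetine. Again granule fluoxetine 2 lay within the vehicle range. In mossy cells it ran from 402 to 496 CPM with vehicle and from 333 to 411 CPM with fluoxetine, with overlap. The effects were 0.66 ± 0.15 and -0.27 ± 0.12, and the interaction was 0.93 ± 0.19 (adjusted p = 0.0408).

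Kif3a, a subunit of the kinesin-2 motor that carries cargo along microtubules and builds cilia, had an interaction of 0.98 ± 0.21 (adjusted p = 0.0449). In mossy cells all 7 fluoxetine libraries (152 to 196 CPM) lay below all 6 vehicle libraries (204 to 234 CPM), while granule-cell levels were 164 to 191 CPM with vehicle and 175 to 369 CPM with fluoxetine. Pik3r1, a regulatory subunit of phosphoinositide 3-kinase, was 88.7 to 105 CPM with vehicle and 116 to 156 CPM with fluoxetine in granule cells, with no overlap, and had an interaction of 0.87 ± 0.18 (adjusted p = 0.0441). Oxr1, which protects cells against oxidative damage, had an interaction of 0.79 ± 0.17 (adjusted p = 0.0449), with levels of 165 to 188 and 183 to 302 CPM in granule cells.

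Wdr46 encodes a nucleolar protein needed for small ribosomal subunit assembly. It had the largest interaction of the higher genes whose average log2 CPM reached 3, at 1.73 ± 0.37 (adjusted p = 0.0449), from granule-cell levels of 5.87, 3.21, 5.89 and 4.98 CPM with vehicle and 7.21, 14.7, 12.1 and 27.5 CPM with fluoxetine. Mossy-cell levels were 11.8 to 14.2 and 9.75 to 14.3 CPM. Ttc12, which is needed to assemble the dynein arms of cilia, was also called (adjusted p = 0.0414), but its granule-cell levels were 0 to 0.288 CPM with vehicle and 0, 1.37, 2.25 and 15.9 CPM with fluoxetine, so its fitted fold rests on a few libraries, chiefly fluoxetine 4. Ttc12 lies outside the rule for named genes and was chosen after its values were seen.

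Of the 20 genes with a lower effect in granule cells, 2 encode neuropeptides. The promoter windows of Cck and Cartpt are shown because they are the 2 peptide genes whose responses differed; each is 300 bases from RefSeq (GRCm38.p6), from 250 before to 50 after the start that RefSeq gives, 5′ to 3′ on the gene's strand. Gene positions elsewhere in the text are from GENCODE M21, whose Cartpt gene begins farther upstream, so the Cartpt window lies inside the GENCODE gene. Capitals mark TGACG or its reverse complement CGTCA, the core of the cAMP response element, and the full palindrome TGACGTCA where both strands' cores overlap.
Cck, chr9:121495645-121495944, minus strand: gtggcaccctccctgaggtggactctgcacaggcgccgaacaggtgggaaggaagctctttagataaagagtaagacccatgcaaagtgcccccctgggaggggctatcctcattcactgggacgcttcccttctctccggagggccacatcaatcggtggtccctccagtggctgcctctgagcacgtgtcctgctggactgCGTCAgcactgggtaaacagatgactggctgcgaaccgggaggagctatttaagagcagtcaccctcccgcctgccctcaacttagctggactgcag
Cartpt, chr13:99900634-99900933, minus strand: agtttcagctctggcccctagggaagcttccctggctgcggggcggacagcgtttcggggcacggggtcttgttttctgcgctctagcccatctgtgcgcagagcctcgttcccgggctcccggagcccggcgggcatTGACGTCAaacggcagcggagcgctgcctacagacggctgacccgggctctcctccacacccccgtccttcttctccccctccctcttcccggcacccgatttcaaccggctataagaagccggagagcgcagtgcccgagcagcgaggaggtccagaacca
Searched on both strands, TGACGTCA was in 3.37% and TGACG in 33.6% of the promoters of 11289 genes tested. Promoters were listed for 19 of the 28 called genes. TGACG was in 3 of 6 such promoters of the higher genes and 6 of 13 of the lower genes, and TGACGTCA in 0 of 6 and 1 of 13. A match describes the letters in this window and does not show a bound site.

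Cck, the precursor of cholecystokinin, a peptide used by interneurons and by some excitatory neurons, lies on chromosome 9 (121489824 to 121495694). Its granule-cell levels were 334, 135, 142 and 368 CPM with vehicle and 142, 134, 110 and 151 CPM with fluoxetine. Vehicle 1 and 4 were high, and vehicle 2 and 3 lay within the range of the fluoxetine libraries. In mossy cells Cck rose from 637 to 740 CPM (median 692) with vehicle to 807 to 1581 CPM (median 1329) with fluoxetine, with no overlap. The effect was -0.87 ± 0.24 in granule cells (adjusted p = 0.0549) and 0.82 ± 0.19 in mossy cells (adjusted p = 0.0266), and the interaction was -1.68 ± 0.31 (adjusted p = 0.0317). With granule-cell libraries 2 and 3 alone the granule-cell effect was -0.19 and the interaction -1.001 (adjusted p = 0.148); with libraries 1 and 4 alone they were -1.27 and -2.08. The CA1 and CA2 marker sum was high in the same 2 vehicle libraries. Its mean was 1156 CPM with vehicle, of which the single gene Pcp4 held 839 CPM, and 680.2 CPM with fluoxetine, of which Pcp4 held 331 CPM. The sum thus largely follows 1 gene, and its part in the result was not tested.

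Cartpt encodes the precursor of the CART peptides, named for their induction by cocaine and amphetamine, and lies on chromosome 13 (99898489 to 99901091). Its levels in granule cells were low, at 11.4, 2.34, 6.397 and 13.3 CPM with vehicle and 1.22, 2.56, 0.935 and 1.59 CPM with fluoxetine. Vehicle 2 lay inside the fluoxetine range and the other vehicle libraries above it. In mossy cells the medians were 6.86 and 7.44 CPM, and fluoxetine 6 was highest at 16.0 CPM. Cartpt fell in granule cells by 2.41 ± 0.44 on the log2 scale (adjusted p = 0.00747), against 0.36 ± 0.32 in mossy cells, an interaction of -2.76 ± 0.54 (adjusted p = 0.0403). As for Cck, vehicle 1 and 4 were highest: with granule-cell libraries 2 and 3 alone the granule-cell effect of Cartpt was -1.35 (adjusted p = 0.290) and the interaction -1.71 (adjusted p = 0.309), against -3.14 and -3.50 with 1 and 4 alone.

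Adcy1 encodes the calcium-stimulated adenylyl cyclase of neurons and lies on chromosome 11 (7063489 to 7178506). Granule-cell levels were 585, 752, 559 and 561 CPM with vehicle and 301, 513, 308 and 251 CPM with fluoxetine, and mossy-cell levels ran from 153 to 192 CPM (median 185) with vehicle and from 205 to 255 CPM (median 233) with fluoxetine. The groups did not overlap in either cell type, below vehicle in granule cells and above it in mossy cells. The effects were -0.84 ± 0.16 (adjusted p = 0.00939) and 0.37 ± 0.13 (adjusted p = 0.160), and the interaction was -1.21 ± 0.21 (adjusted p = 0.0301).

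Among genes for growth-factor signals, Gfra2, a co-receptor for neurturin, stood at 147, 59.9, 50.5 and 137 CPM with vehicle and 21.3, 37.6, 28.6 and 50.5 CPM with fluoxetine in granule cells, with the highest values again in vehicle 1 and 4. Mossy-cell medians were 28.9 and 36.3 CPM, and the interaction was -1.82 ± 0.36 (adjusted p = 0.0408). Kitl, the ligand of the Kit receptor tyrosine kinase, lies on chromosome 10 (100015630 to 100100416). Granule-cell Kitl was 13.1, 21.7, 28.0 and 22.9 CPM with vehicle and 4.10, 7.04, 9.46 and 5.801 CPM with fluoxetine, with no overlap. Mossy-cell levels were 9.37 to 14.4 and 8.87 to 16.6 CPM. Its interaction of -1.66 ± 0.34 (adjusted p = 0.0417) came with an effect of -1.70 ± 0.27 in granule cells and -0.04 ± 0.21 in mossy cells.

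The postsynaptic scaffold gene Shank2, on chromosome 7 (144001928 to 144424494), was 210, 130, 102 and 182 CPM with vehicle and 81.9, 108, 83.5 and 78.3 CPM with fluoxetine in granule cells. In mossy cells all fluoxetine libraries (82.9 to 109 CPM) lay above all vehicle libraries (48.4 to 81.5 CPM). The interaction was -1.35 ± 0.25 (adjusted p = 0.0317). C1ql3, a secreted C1q-like protein that acts at synapses, rose in mossy cells from 19.5 to 26.9 CPM with vehicle to 26.2 to 54.4 CPM with fluoxetine, by 0.68 ± 0.16 (adjusted p = 0.0278), with 6 of 7 fluoxetine libraries above every vehicle library. Its granule-cell levels were 80.9 to 115 and 51.5 to 82.5 CPM, an effect of -0.57 ± 0.20 (adjusted p = 0.124), and its interaction was -1.25 ± 0.26 (adjusted p = 0.0414). Exons of the opposite-strand gene Gm37811 cover 61.0% of the exonic bases of C1ql3, and the strand setting of the counts is not given in the sources used here, so reads of these genes cannot be told apart. The dendrite and postsynaptic protein gene Ddn and the phosphatase subunit gene Ppp1r16b had interactions of -1.09 ± 0.22 and -1.19 ± 0.24 (adjusted p = 0.0408 for both), with no overlap of the granule-cell groups.

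**Figure D2:**
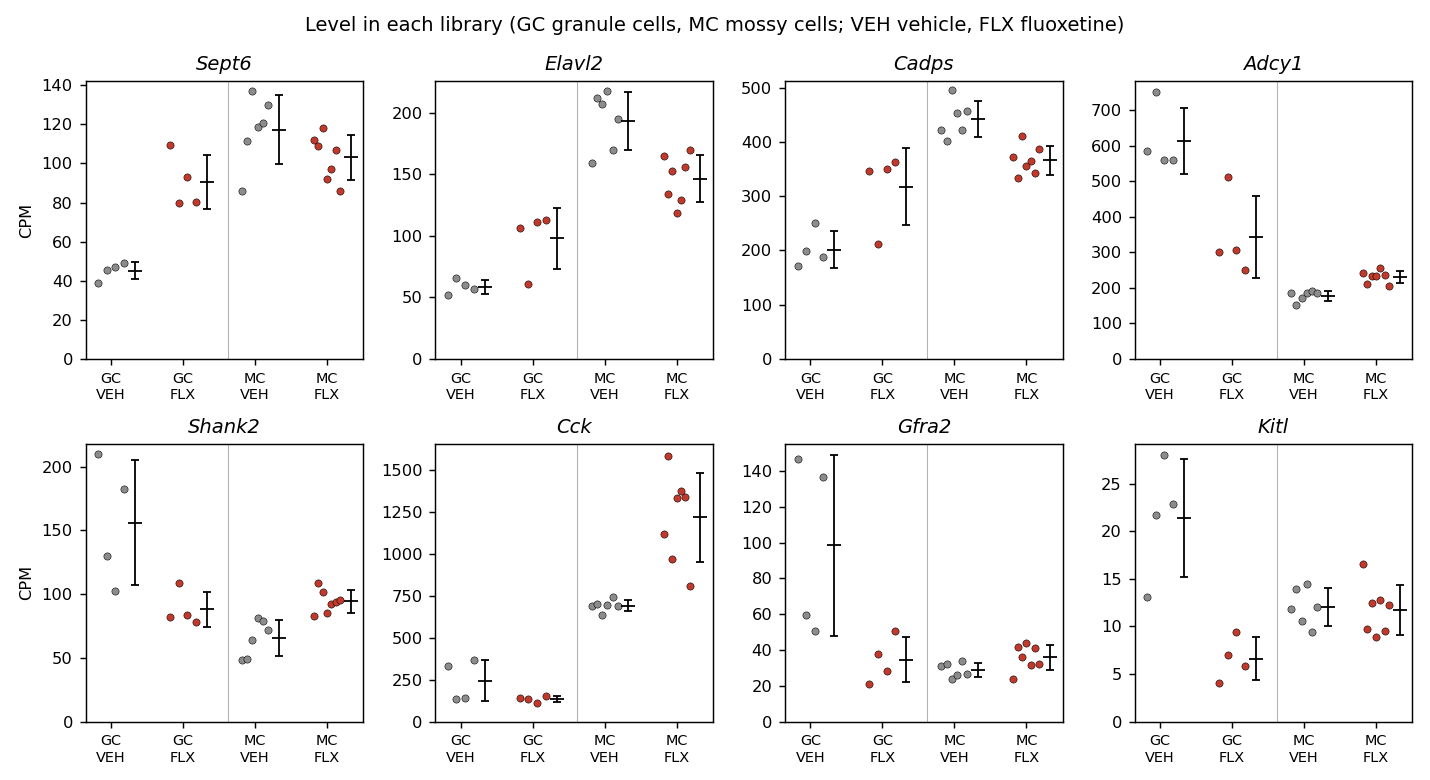
Level (CPM) of 8 called genes in each library, with the mean and SD of each group beside the points (GC granule cells, n = 4 and 4; MC mossy cells, n = 6 and 7; VEH vehicle; FLX fluoxetine). Sept6 with fluoxetine is above every vehicle library in granule cells, Adcy1 moves apart in opposite directions in the 2 cell types, and Cck, Gfra2 and Shank2 are high in granule vehicle 1 and 4.

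The 7 lower genes whose mossy-cell effect was called were Cck, C1ql3, Ly6e, Wscd1, B3galt5, Golm1 and Trp53i11. Ly6e, which encodes a GPI-anchored membrane protein, rose in mossy cells from 167 to 221 CPM with vehicle to 287 to 399 CPM with fluoxetine (0.84 ± 0.13, adjusted p = 0.00264), with no overlap, while its granule-cell effect was -0.24 ± 0.16. The interaction of Ly6e was -1.09 ± 0.20 (adjusted p = 0.0317). Wscd1, a Golgi sulfotransferase-family gene, rose in mossy cells from 34.5 to 44.5 CPM to 52.2 to 98.0 CPM (0.90 ± 0.16, adjusted p = 0.00647), with a granule-cell effect of -0.39 ± 0.20. Its interaction was -1.29 ± 0.25 (adjusted p = 0.0408). The glycosyltransferase gene B3galt5 and the Golgi membrane protein gene Golm1 also rose in mossy cells, by 0.64 ± 0.16 and 0.60 ± 0.14, with interactions of -1.19 for each. Their granule-cell effects were of nearly the same size in the other direction, at -0.55 ± 0.20 for B3galt5 (adjusted p = 0.140) and -0.59 ± 0.18 for Golm1 (adjusted p = 0.0707), and every granule fluoxetine library of Golm1 (28.4 to 46.3 CPM) lay below every vehicle library (47.8 to 69.4 CPM). Exons of the opposite-strand gene Naa35 cover 29.3% of those of Golm1.

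Trp53i11, a p53-inducible gene, was the gene called in both cell types. It fell in granule cells from 85.3, 58.0, 52.1 and 87.9 CPM to 32.9, 49.8, 39.8 and 48.6 CPM, by 0.73 ± 0.19 on the log2 scale, and rose in mossy cells from a median of 224 to 316 CPM, by 0.59 ± 0.15. R3hdm4 had granule-cell levels of 691, 354, 335 and 733 CPM with vehicle and 340, 366, 244 and 292 CPM with fluoxetine, an interaction of -1.28 ± 0.24 (adjusted p = 0.0317), and the same split of the vehicle libraries as Cck. The remaining lower genes were the receptor phosphatase gene Ptpra (-1.19), the triglyceride-synthesis gene Dgat2 (-1.13), the endoplasmic-reticulum lectin gene Mlec (-0.90), BC056474 (-0.96) and Ccdc63. Ccdc63 had no count in any granule fluoxetine library and 0 to 1.45 CPM with vehicle, so its fitted value is no measure of the size of a change. Ly6e, Golm1, Ppp1r16b, Ptpra, Dgat2, Ddn, BC056474, Mlec and Ccdc63 lie outside the rule for named genes and were chosen after their values were seen.

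Within the granule-cell libraries 2 and 3 alone, and within 1 and 4 alone, all 28 genes kept the sign of the interaction, and 26 were larger in size in libraries 1 and 4. The 28 were chosen by the fit over these same libraries, and both pairs were set against the same mossy-cell libraries, so a kept sign is no independent support. With libraries 2 and 3 alone 7 genes were called over the whole table, and only 1 of them, Ttc12, was among the 28. With 1 and 4 alone 1677 were called, including all 28. The interactions of Gfra2, Shank2 and R3hdm4 were -1.05, -0.80 and -0.69 with libraries 2 and 3, against -2.30, -1.82 and -1.70 with 1 and 4. The granule-cell effect of Ly6e was 0.19 and that of Wscd1 0.07 in libraries 2 and 3, against -0.72 and -0.88 in libraries 1 and 4. For Sept6 the granule-cell effect was 0.90 and 1.10 in the 2 pairs, and for Kitl -1.59 and -1.87.

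**Figure D3:**
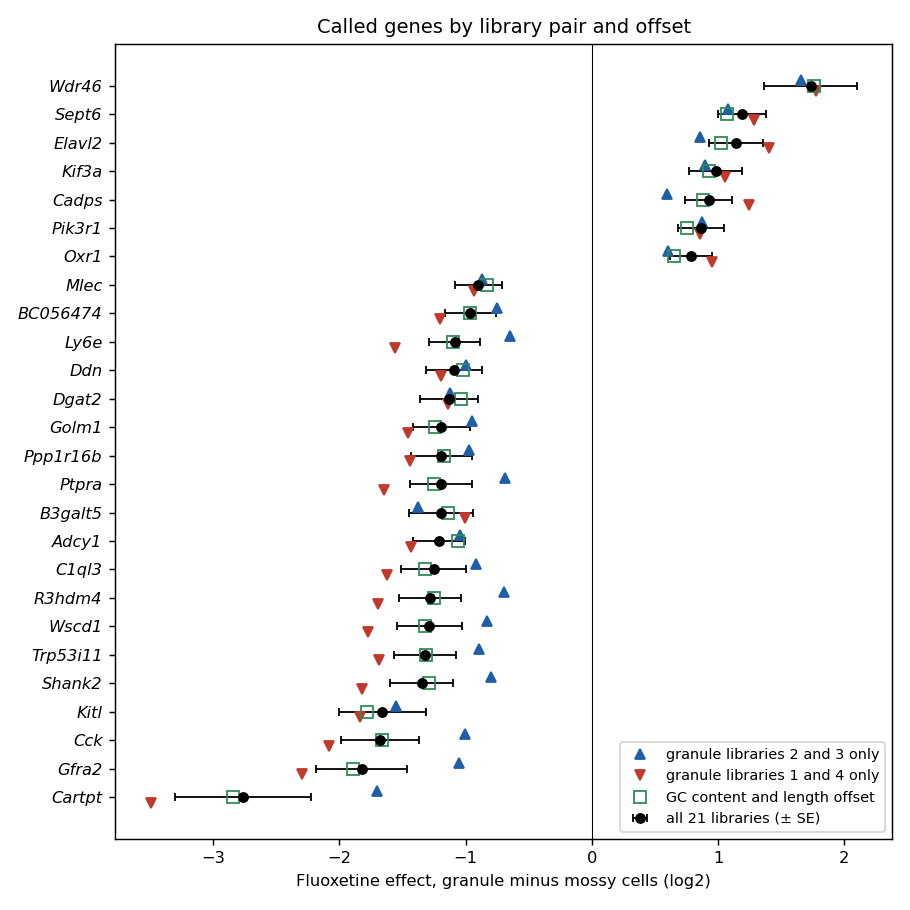
Interaction (log2, x axis) of 26 called genes over all 21 libraries (black, ± SE), with granule-cell libraries 2 and 3 only (blue), with 1 and 4 only (red), and with an offset for GC content and transcript length (green squares). All points of a gene lie on the same side of 0, the pairs lie far apart for Cck, Gfra2, Shank2 and R3hdm4 and close together for Sept6 and Kitl; Ttc12 and Ccdc63 are left out because their fitted values rest on counts near 0.

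The fluoxetine effect in mossy cells moved with the GC content of the transcripts, and so did the interaction. Among 9522 genes whose average log2 CPM reached 3, the median mossy-cell effect ran from -0.11 in the tenth of genes with the lowest GC content to 0.16 in the tenth with the highest, while the median granule-cell effect stayed between -0.01 and 0.04. The median interaction ran from 0.09 to -0.19. The 8 genes called higher had a median transcript GC content of 44.3% (41.4 to 55.9%), and the 19 matched genes called lower 53.5% (44.0 to 61.3%), against 50.5% for all. With the offset for GC content and length the 28 interactions were 0.82 to 1.07 times their size without it, with adjusted p-values from 0.0501 to 0.116.

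**Figure D4:**
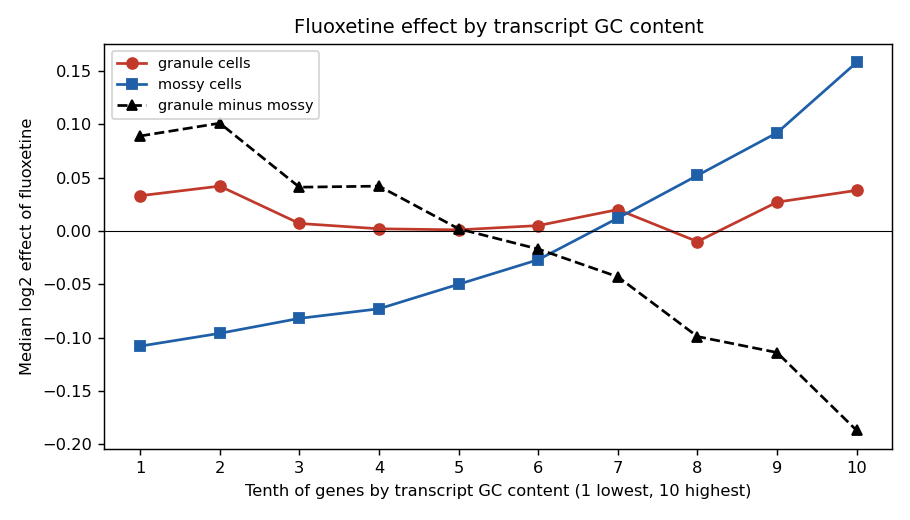
Median log2 effect of fluoxetine in granule cells (red), mossy cells (blue) and their difference (black dashed) in 10 groups of equal size of 9522 genes ordered by transcript GC content. The mossy-cell median climbs from -0.11 to 0.16 and the difference falls from 0.09 to -0.19, while the granule-cell median stays near 0.

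Of 22 neuropeptide genes tested, 0 were called higher and 2 lower (Cck and Cartpt), with a median interaction of -0.40, against -0.02 over all genes tested; 3 of 22 had a positive interaction, against 48.5% of all genes. The median effect was 0.17 in granule cells and 0.59 in mossy cells. Most of this list was not called. Penk, the enkephalin precursor, had nearly equal effects of 1.09 ± 0.32 and 1.12 ± 0.26 (interaction -0.03 ± 0.40, adjusted p = 0.983). Its granule-cell levels were 44.8, 30.0, 35.9 and 55.4 CPM with vehicle and 113, 75.2, 84.9 and 80.1 CPM with fluoxetine, with no overlap. The peptide precursor Vgf had effects of 0.62 ± 0.27 and 0.81 ± 0.21, and Sst, which encodes somatostatin, -0.07 ± 0.32 and 0.60 ± 0.26. Interneuron markers summed to 3330 to 4490 CPM with vehicle and 3080 to 5970 CPM with fluoxetine in mossy-cell libraries. Sst, Npy and Vip are on both lists, and mean Sst rose there from 1485 to 2253 CPM and mean Npy from 316.7 to 506.6 CPM. Of the other interneuron markers, mean levels fell for Gad1, Gad2 (1022 to 786.8 CPM), Pvalb, Lhx6 and Dlx1. They rose for Slc32a1, Dlx6, Htr3a and Reln (256.9 to 409.8 CPM). The part of interneurons in the peptide values was not tested.

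Of 18 genes for granins and peptide processing, Cadps was called higher and 0 lower (median interaction -0.11, from -0.31 to 0.07 over the alternatives). Ptprn, a dense-core vesicle membrane protein, rose by nearly the same amount in both cell types, by 0.79 ± 0.16 and 0.84 ± 0.13. Pcsk2, a prohormone convertase, rose by 0.64 ± 0.17 and 0.63 ± 0.13, and Sort1, a sorting receptor, by 0.61 ± 0.16 and 0.53 ± 0.13.

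Of 77 cytosolic ribosomal protein genes, none was called in the interaction, but only 4 had a positive value, against 48.5% of all genes tested. Their median was -0.34, with a range from -0.88 to 0.14. At an unadjusted p under 0.05, 24 of the 77 were lower and 0 higher, against 1166 lower and 985 higher of all 15444 genes. Fluoxetine lowered 7 of the 77 in granule cells, such as Rpl32 by 0.91 ± 0.20 and Rps6 by 0.84 ± 0.21, against 0.9% of all genes. It lowered none of the 77 in mossy cells, where their median was -0.04. The median interaction stayed below 0, from -0.43 to -0.21, in the alternatives run. The 75 nuclear-encoded oxidative phosphorylation genes had a median of -0.24, with 0 called.

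The 17 cytosolic heat shock chaperones went the other way, with 15 positive, against 48.5% of all genes, a median interaction of 0.49 and 0 called. At an unadjusted p under 0.05, 6 of the 17 were higher and 0 lower, against 985 higher and 1166 lower of all 15444 genes. Hsp90aa1, an inducible chaperone, had effects of 0.66 ± 0.21 in granule cells and -0.23 ± 0.16 in mossy cells (interaction adjusted p = 0.136), and Hspa4l 0.71 ± 0.21 and -0.31 ± 0.16 (adjusted p = 0.0949). The list median ran from 0.34 to 0.60 over the alternatives.

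Of 12 granule-cell markers none was called in the interaction, 2 were positive, against 48.5% of all genes, and the median was -0.39. Fluoxetine lowered 3 of the 12 in granule cells, against 0.9% of all genes tested. Calb1, which encodes the calcium-binding protein calbindin, stood at 317, 227, 257 and 309 CPM with vehicle and 128, 121, 166 and 179 CPM with fluoxetine, with no overlap. It fell by 0.90 ± 0.16 (adjusted p = 0.00722) in granule cells, with an effect of -0.21 ± 0.13 in mossy cells, an interaction of -0.69 ± 0.20 (adjusted p = 0.132). Prox1, the transcription factor that specifies granule cells, fell by 0.64 ± 0.17 in granule cells, against -0.33 ± 0.13 in mossy cells (interaction adjusted p = 0.533), and the third was Pdzd2, by 0.74 ± 0.16. Fewer cells of a type and less RNA per cell cannot be told apart in such samples. The 10 immature granule-cell markers had a median interaction of 0.38 with 0 called; Sox11, a transcription factor of immature neurons, rose in granule cells by 0.95 ± 0.23, against 0.10 ± 0.18 in mossy cells (interaction adjusted p = 0.176). The summed astrocyte markers in granule-cell libraries were 1350 to 1600 CPM with vehicle and 1890 to 2450 CPM with fluoxetine, and the microglia markers 28.0 to 44.8 and 59.5 to 67.1 CPM. Oligodendrocyte markers summed to 622 to 782 CPM with vehicle and 849 to 1036 CPM with fluoxetine, and CA3 pyramidal-cell markers to 622 to 750 and 776 to 896 CPM, also with no overlap. Mossy-cell markers summed to 644 to 822 and 781 to 1189 CPM in the same libraries, with overlap. Of their mean sums of 716.3 and 1009 CPM, Sv2b held 362 and 529.1 CPM and Gria3 270.9 and 391.7 CPM. In mossy-cell libraries, mossy-cell markers summed to 894 to 1035 CPM with vehicle and 1112 to 1493 CPM with fluoxetine, with no overlap. CA3 pyramidal-cell markers there summed to 409 to 487 and 462 to 862 CPM, with overlap. No marker of these lists was at 0 in every library of a group, and their part in the effects of either cell type was not tested.

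Of 12 serotonin receptor genes tested, 0 were called in the interaction, and the median was -0.40, from -0.48 to 0.04 over the alternatives. The serotonin transporter gene Slc6a4, whose product fluoxetine blocks, did not pass the filter on low counts and was not tested, nor were the receptor genes Htr2b and Htr3b. Htr1a, the inhibitory receptor that mediates much of the serotonin response of dentate neurons, had effects of 0.08 ± 0.24 and 0.09 ± 0.19, an interaction of -0.01 ± 0.31. S100a10, which encodes p11, a partner of serotonin receptors, had an interaction of 0.14 ± 0.37. Bdnf, a neurotrophin, had effects of 0.42 ± 0.21 and 0.47 ± 0.17, an interaction of -0.06 ± 0.26. Slc17a7, the vesicular glutamate transporter, rose in mossy cells by 0.998 ± 0.17 (adjusted p = 0.00599), with all fluoxetine libraries above all vehicle libraries; in granule cells its effect was 0.41 ± 0.21, and the interaction of -0.58 ± 0.27 did not pass (adjusted p = 0.335).

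Of 22 activity-regulated genes, 0 were called, with a median interaction of -0.27 (from -0.45 to 0.04 over the alternatives), and of 15 glucocorticoid receptor and response genes 0 were called, with a median of -0.51 and 2 positive. Klf9, a transcription factor induced by glucocorticoids, fell in granule cells by 0.43 ± 0.11, against 0.09 ± 0.09 in mossy cells (interaction adjusted p = 0.118). The 75 potassium channel genes had a median of -0.22, with 0 called and 20 positive. Of all genes tested, 48.5% were positive. Lists of other cell types had the most extreme medians, and their sums differed widely between libraries. Choroid plexus markers had a median of 2.29 (from -0.89 to 4.78 over the alternatives), with sums of 400 and 494 CPM in mossy vehicle 1 and 2 against 32.6 to 97.2 CPM in the other 4. In granule-cell libraries the sums were 1960 and 1390 CPM in fluoxetine 2 and 3 against 207 CPM in both 1 and 4, and with vehicle 833 CPM in library 2 against 117 to 426 CPM in the other 3. Microglia markers had a median of -1.47 (from -1.82 to -0.60 over the alternatives), with 106 CPM in mossy fluoxetine 4 against 5.37 to 27.6 CPM in the other 6. The mossy vehicle libraries had 3.68 to 7.66 CPM, and only mossy fluoxetine 5 lay within that range. Fluoxetine raised 3 of the 10 microglia markers in mossy cells, against 1.86% of all genes tested. No gene of either list was called in the interaction.

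**Figure D5:**
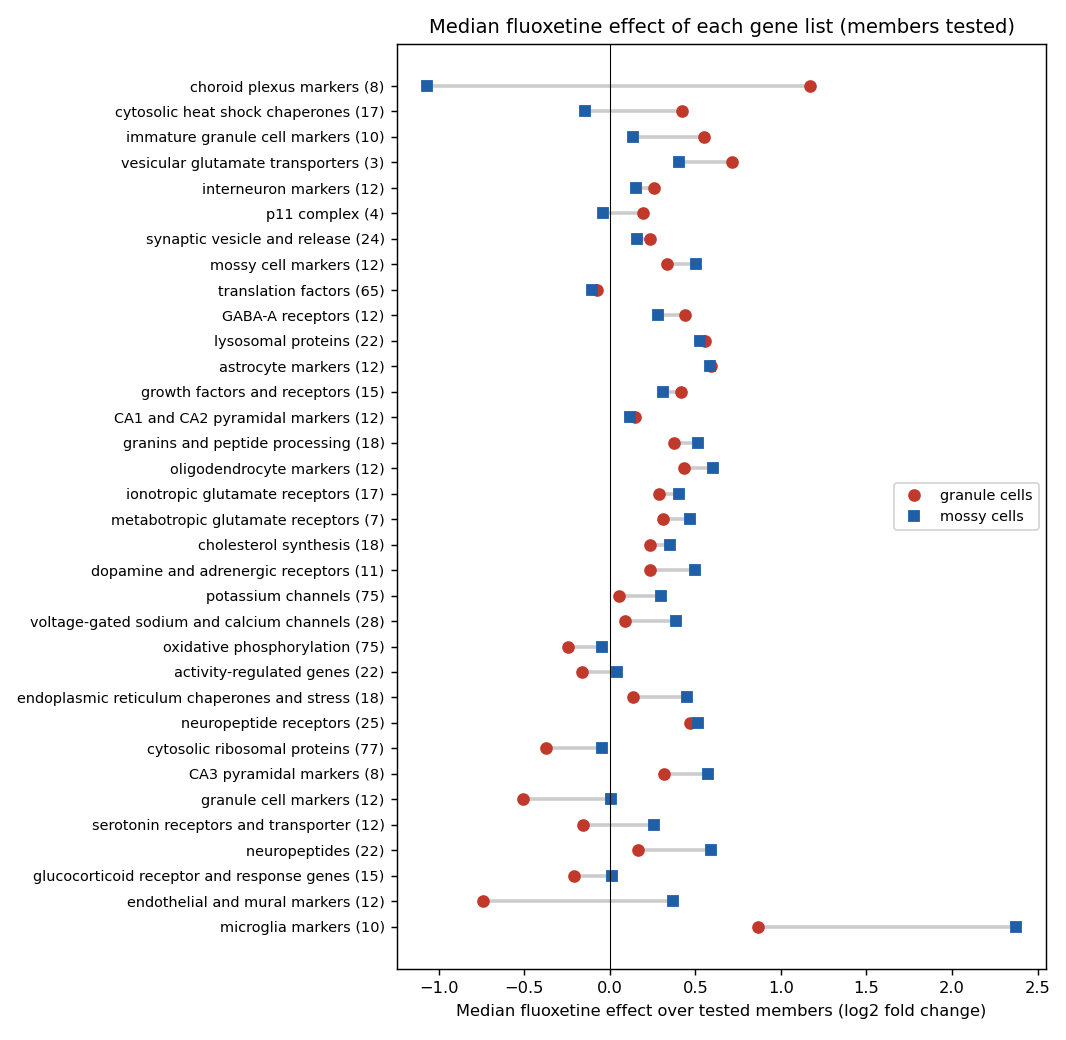
Median log2 effect of fluoxetine in granule cells (red circles) and mossy cells (blue squares) for each gene list, ordered by median interaction, with the number of members tested in parentheses. Ribosomal protein and granule-cell marker lists lie below 0 in granule cells and near 0 in mossy cells, while choroid plexus and microglia markers lie at the ends.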

How the data were processed

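The deposited values are counts, given by the authors as raw reads per gene symbol in 1 table per cell type; the hippocampus table was not analysed here. The submitters' processing notes name the aligner STAR 2.5.2b, the counter HTSeq 0.7.2, edgeR and the GRCm38 build; annotation and strand setting are not given in the sources used here. Per the labels' protocols, cDNA came from single-primer amplification and was read in pairs. Of 24485 symbols, 22753 matched GENCODE M21 directly and 1321 through a RefSeq synonym.

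All 21 libraries were fitted together with edgeR 4.0.16 in R 4.3.3 (TMM, filterByExpr, estimateDisp, glmQLFit, glmQLFTest, two-sided, 4 group means) and Benjamini-Hochberg adjustment over 15444 genes at a threshold of 0.05. CPM use TMM-scaled library sizes. Errors of log2 effects are SEs from this fit, whose spread was estimated from both cell types together. Named genes were up to 10 per direction by size, provided the average log2 CPM reached 3 and the same sign without any 1 library, then up to 2 called members of each list, and a set of genes always shown. The members and lists were chosen with earlier results of these data known.

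The fit was tested on simulated counts. Alternatives were other scalings and filters, DESeq2 1.42.0, limma-voom (limma 3.58.1), 1 surrogate variable (sva 3.50.0), replicate blocks, a term for the granule-cell libraries high in Rn45s (ribosomal RNA precursor), removal of Rn45s and Lars2, a loess offset for GC content and length, an adjusted p of 0.1, and libraries left out. The Rn45s term marked granule vehicle 2, granule vehicle 3 and granule fluoxetine 2, and no mossy-cell library. A term for granule-cell libraries 1 and 4, and fits with each pair alone, were chosen after seeing the data. The chi-square between replicates was 9.5 to 375 times its degrees of freedom, so no 2 libraries of the same group are duplicates. Libraries of different groups were not compared in this way. Depths limit the precision of low counts, and PCR duplicates cannot be removed.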

Additional observations from a re-analysis of the deposited data

Results flagged for a closer look

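The test of the difference between the 2 cell types picked out 28 genes. The granule minus mossy log2 values of the 8 higher genes were 5.52 for Ttc12, 1.73 for Wdr46, 1.19 for Sept6, 1.14 for Elavl2, 0.98 for Kif3a, 0.93 for Cadps, 0.87 for Pik3r1 and 0.79 for Oxr1. Those of the 20 lower genes were -7.31 for Ccdc63, -2.76 for Cartpt, -1.82 for Gfra2, -1.68 for Cck, -1.66 for Kitl, -1.35 for Shank2, -1.32 for Trp53i11, -1.29 for Wscd1, -1.28 for R3hdm4, -1.25 for C1ql3, -1.21 for Adcy1, -1.19 for each of B3galt5, Ppp1r16b, Ptpra and Golm1, -1.13 for Dgat2, -1.09 for Ddn and Ly6e, -0.96 for BC056474 and -0.90 for Mlec. The fitted values of Ttc12 and Ccdc63 depend on counts near 0 and are no bounds.

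A single library stood far from the others of its group in 21 of 212 groups of 53 genes. A chance rate of about 1 in 20 would hold only for unselected, independent groups. These genes were partly chosen by the fit and share libraries, so the 2 rates cannot be compared. In granule fluoxetine 2, Elavl2 was low at 61.3 CPM (others 106 to 113), Cadps was low at 212 CPM (others 346 to 362) and the ribosomal RNA precursor Rn45s was high at 66300 CPM (others 6580 to 15500). Granule fluoxetine 1 was low for Pik3r1 at 116 CPM. Granule fluoxetine 4 was high for Ttc12 at 15.9 CPM and for the dopamine receptor gene Drd2 at 10.1 CPM. These 2 genes lie near each other on chromosome 9, at 49436963 to 49486225 and 49340627 to 49408177. Mossy-cell libraries held 8.57 to 14.9 CPM of Ttc12 and 24.6 to 74.9 CPM of Drd2. In granule vehicle libraries, Adcy1 was high in library 2 at 752 CPM and Bdnf low in library 1 at 41.8 CPM. Gal was highest in vehicle 3 at 0.221 CPM and in fluoxetine 3 at 0.356 CPM, with the others at 0.

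In mossy fluoxetine 2, the peptide genes Npy at 1500 CPM and Gal at 64.5 CPM were high, as was Bdnf at 42.8 CPM. In mossy fluoxetine 4, the microglia gene Csf1r at 39.8 CPM, the astrocyte gene Slc1a3 at 71.2 CPM, Prox1 at 34.7 CPM and Ddn at 268 CPM were high. Other mossy-cell values that stood apart were Pdyn at 2.74 CPM in fluoxetine 1, Cartpt at 16.0 CPM in fluoxetine 6, Tdo2 at 2.41 CPM in fluoxetine 7 and B3galt5 at 18.7 CPM in vehicle 2.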

How the results depend on the processing

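All 28 genes kept the sign of their interaction in every alternative that tested them, but these alternatives reuse the libraries that chose the genes. Counts of calls did not hold. Called genes higher and lower in granule cells numbered 102 and 174 with DESeq2, 0 and 1 with limma-voom and quality weights (1409 genes at an unadjusted p under 0.05), 0 and 0 with limma-voom in each cell type on its own (1248), 34 and 88 with 1 surrogate variable, 51 and 97 with an Rn45s term, 47 and 90 at an adjusted p of 0.1, 0 and 0 with the GC content and length offset (2127), 0 and 0 without mossy fluoxetine 2 and 4 (1830), 1 and 0 without mossy vehicle 1, 2 and 4, 43 and 86 with a term for granule-cell libraries 1 and 4, 5 and 2 with granule-cell libraries 2 and 3 only, and 829 and 848 with 1 and 4 only. Higher genes numbered 4 without a filter and 13 at a mean CPM of at least 5. Without 1 library they ran from 0 to 163 higher and from 0 to 191 lower, and leaving out any library other than mossy fluoxetine 1 moved the total of 28 by over 1.5 times; the cause was not tested.

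Calls in granule cells, 335 in the fit reported, were 875 with DESeq2, 5 and 0 with the 2 limma-voom fits, 597, 1121, 810, 100, 779, 38 and 2129 with the surrogate variable, the Rn45s term, an adjusted p of 0.1, mossy vehicle 1, 2 and 4 left out, the library term, libraries 2 and 3, and libraries 1 and 4, and 94 to 774 without 1 library. Calls in mossy cells, 292 in the fit reported, were 584 with DESeq2, 1649 and 1088 with the 2 limma-voom fits, 451, 494, 520, 0, 540, 1033 and 673 with the same 7 settings in the same order, 165 with upper quartile scaling, 16 without mossy fluoxetine 2 and 4, and 36 to 463 without 1 library. For mossy vehicle 1, 2 and 4, the count of 0 in mossy cells is by edgeR.

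Libraries sharing a replicate number correlated by 0.081 to 0.189 in granule cells and -0.09 to 0.049 in mossy cells, and 2 of the 4 granule-cell values exceeded 0.1. Since not every pair did, and the labels tie the numbers to no animal or batch, the numbers were not taken to pair the samples, although all 4 granule-cell values were positive. With the replicate number as a block within each cell type, 2 genes were called higher and 4 lower in the interaction, 4 of these 6 being among the 28, and 144 in mossy cells; with a shared replicate block, 0 and 0 (1993 at an unadjusted p under 0.05), 184 in granule cells and 53 in mossy cells. The spread of 4 granule-cell libraries a group and low counts limit what can be detected.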
